A study of Mus musculus with 12 samples.

Results

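Naive CD8 T cells were compared with tumour-infiltrating T cells of the same T cell receptor specificity 4 days after transfer into tumour-bearing mice. All T cells here are OT-I, with a transgenic receptor for an ovalbumin peptide on MHC class I. The comparison used 6 of the 12 bulk RNA-seq libraries of the series, 3 of naive cells and 3 of day 4 cells. They were chosen by the sample titles, and no measured value entered the choice. Per the labels, naive cells came from the lymph nodes of tumour-free OT-I animals (time given as day 0). The day 4 cells were adoptively transferred OT-I cells that were sorted as CD44+ cells from B78ChOVA melanomas growing in C57Bl6/J mice. Their titles call them exhausted. The labels give the genotype OT-I for every group, N/A for treatment and no age. The file names of the day 4 and day 14 libraries carry the tag "iso", which the labels do not explain. Of the other 6 libraries, 3 are effector cells made by 5 days of antigenic stimulation in culture, and 3 are OT-I cells taken from the same tumour type 14 days after transfer. They were used to estimate the spread and to show where the day 4 cells differ from other antigen-experienced cells. Nothing in the labels says that replicates came from separate mice, so p-values measure the spread between these libraries. That spread, and the standard errors (SE) below, come from the fit of all 12 libraries and not from the compared groups alone. Tissue of origin, tumour and antigen exposure, transfer and the CD44 gate all differ between the naive and the day 4 group, and their effects cannot be told apart.

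A naive CD8 T cell recirculates between blood and lymph nodes, divides rarely and keeps a small, quiescent metabolism. After it meets antigen it enters the cell cycle, builds biomass, changes its homing receptors and acquires cytokines and cytotoxic granules. Where antigen persists, as in tumours, CD8 T cells also take up a programme called exhaustion, with lasting expression of inhibitory receptors and of transcription factors of the NR4A and TOX families.

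The 6 libraries held 11937053 to 16056124 counts in genes. Genes with at least 1 count numbered 19656 to 20526 in the naive libraries and 21862, 21884 and 25446 in the day 4 libraries, the highest number being that of day 4 replicate 2. The first principal component of all 12 libraries took 71.82% of the variance, with every naive and effector library on one side and every tumour library on the other. In all, 16426 genes had enough counts to be tested. A gene was called when its p-value, from edgeR's quasi-likelihood test with Benjamini-Hochberg adjustment over all genes tested, was under 0.05. "Rose" and "fell" are used only for called genes. Levels are given as CPM (library-normalised counts scaled to a common total), which do not correct for gene length and so compare 1 gene between libraries, not genes with each other.

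By this test 10221 genes differed between day 4 and naive cells, which is 62.2% of those tested. Of these, 5493 were higher at day 4 (33.4% of genes tested) and 4728 were lower (28.8%). The median log2 fold change of all genes tested was 0.03. Large increases were more frequent than large decreases: 1805 genes (11%) rose at least 8-fold and 568 (3.46%) fell at least 8-fold. Genes called higher made up 22.6% to 23.3% of the normalised counts in naive libraries and 46.6% to 48.0% at day 4, and genes called lower went from 47.8% to 48.0% down to 23.5% to 24.7%. The CPM ranges of the 2 groups did not overlap for 11228 genes (68.4%). Without day 4 replicate 2, 9607 genes were called. DESeq2, which tested more genes, called 10497 of 22159 (47.4%), 26.6% higher and 20.8% lower. Against these shares, a list with about 6 in 10 members called is near the background, and the lists below are read by their direction and size as well as by their counts.

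Markers of T cells were present in every library, and markers of tumour cells rose with the comparison. The summed level of 8 genes of T cell identity was 4293 to 4841 CPM in naive and 2954 to 3480 CPM in day 4 libraries, and 5 of them fell. In bulk RNA, fewer cells of a type and less RNA per cell cannot be told apart. All 10 melanoma markers rose, with a median log2 fold change of 7.99, and their sum went from 35.5 to 41.8 CPM in naive libraries to 904 to 1345 CPM at day 4. Dct, an enzyme of melanin synthesis, was at 0.591, 2.15 and 0.612 CPM in naive and at 789, 698 and 479 CPM in day 4 libraries. Of 8 fibroblast markers tested, 5 rose and 1 fell, and the list's sum went from 4.06 to 4.21 CPM to 166 to 301 CPM. Most of that sum was Fn1, which encodes fibronectin and is also made by other cells, at 112, 214 and 186 CPM at day 4. The fibroblast markers Col1a2, Lum and Pdgfra had no count in naive libraries. The day 4 sums of melanoma and fibroblast markers lay above every naive sum. The part of tumour-derived RNA in the genes that rose was not tested.

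Among the immune markers, the macrophage list summed to 97.4 to 131 CPM in naive and 153 to 260 CPM in day 4 libraries, and 6 of its 18 members rose. That share is near the 33.4% of all genes tested that were called higher. The highest sum, 260 CPM, was that of day 4 replicate 3, and the other day 4 sums were 156 and 153 CPM. Of the members that rose, C1qb and Cd14 lost their calls without day 4 replicate 3. C1qb also lost its call without naive replicate 2 or 3, and Cd14 without naive replicate 1, 2 or 3. Csf1r, which defines macrophages, was at 2.33 and 2.15 CPM on average and was not called. Ctss, the member with the highest level at day 4, was at 84.0 ± 8.53 CPM (SD, n = 3) in naive and 83.7 ± 12.7 CPM (SD, n = 3) in day 4 libraries, and its difference did not pass the test (log2 fold change -0.00 ± 0.12 SE, adjusted p = 0.977). The dendritic cell and MHC class II list went from 8.57 to 32.1 CPM to 120 to 153 CPM, with 6 of 8 tested members higher, and Cd74, the invariant chain of MHC class II, made up most of it. The B cell list, with 5 of 8 tested members lower and 1 higher, went from 944 to 1145 CPM to 397 to 434 CPM, most of it Ighm. Of the 7 genes on the list of CD4 T cells and regulatory T cells, 5 rose and 1 fell, and its sum went from 60.4 to 82.8 CPM to 1439 to 1531 CPM, mostly through Ctla4, Il2ra and Ikzf2, which activated CD8 cells also express. Cd4 itself rose from 0.296, 0.717 and 0.153 CPM to 1.25, 4.63 and 2.20 CPM (log2 fold change 2.79 ± 0.71, adjusted p = 2.67e-03, and 2.16 without day 4 replicate 2 or 3.55 without naive replicate 2). Zbtb7b, the transcription factor of the CD4 lineage, rose from a mean of 0.25 to 3.67 CPM (3.81 ± 0.59, adjusted p = 3.50e-05, and 4.88 without naive replicate 1). The part of CD4 T cells in other results was not tested. Foxp3, which defines regulatory T cells, was at 1.95 and 2.01 CPM on average and was not called. Of the NK cell list only Gzma and Eomes were tested, and Ncr1, the defining receptor, had no count in either group. The endothelial list had 1 of 2 tested members higher and 1 lower. The member that fell was Pecam1, the one with the highest level at day 4. Its log2 fold change lay between -1.43 and -1.25 under the 12 alternative analyses described below. The list's sum went from 178 to 198 CPM in naive libraries to 65.5 to 89.0 CPM at day 4. Vwf, an endothelial marker on that list, had 2 counts in the naive libraries together and 231 in the day 4 libraries. The part of endothelial cells in other results was not tested. No neutrophil marker passed the filter, and none of 4 red cell and platelet markers tested was called.

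**Figure D1:**
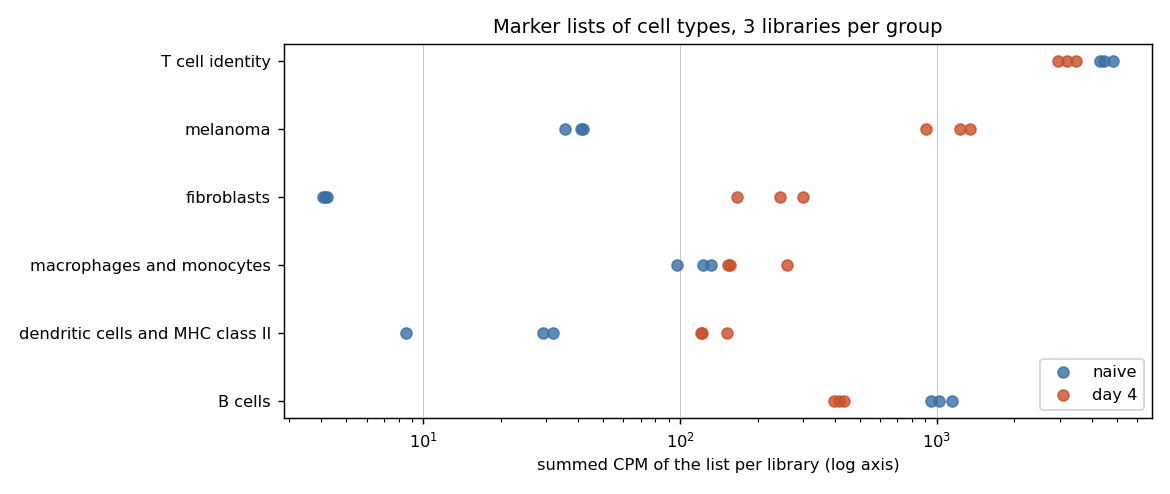
Summed CPM of each cell type's marker list (log axis), 1 point per library, 3 naive and 3 day 4 libraries. Melanoma markers lie between 35.5 and 41.8 CPM in naive and between 904 and 1345 CPM in day 4 libraries, while T cell identity genes lie between 2954 and 4841 CPM in all 6.

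Among abundant protein-coding genes on no marker list of another cell type, the 12 with the highest fold changes were Bhlhe40, Nr4a2, Gzmb, Cd83, Tnfrsf9, Nr4a3, Plek, Nrp1, Cemip2, Ube2c, Anxa2 and Ttn. Among the 12 with the lowest were Ccr9, Oas2, S1pr1, Treml2, Ifit1bl1, Gm14085, Il6ra, Ifi213, Tgtp1, Klf3 and Rasgrp2. Bhlhe40 (chromosome 6, 108660629 to 108666925, GRCm38), a transcription factor that supports cytokine production in T cells, was at 1.18, 0.717 and 0.536 CPM in naive libraries and at 928, 975 and 887 CPM at day 4. The groups were far apart and each was tight, and the log2 fold change was 10.14 ± 0.34 (SE, adjusted p = 5.45e-10). Ccr9 (chromosome 9, 123678439 to 123784330), the chemokine receptor for homing to the small intestine, went the other way. It was at 277, 282 and 458 CPM in naive and at 1.32, 2.40 and 1.07 CPM in day 4 libraries, with a log2 fold change of -7.70 ± 0.82 (adjusted p = 4.86e-05). Both genes separated the groups without overlap. Plek, a substrate of protein kinase C, rose by 6.94 ± 0.46 on the log2 scale, and Anxa2, a membrane-binding annexin, by 5.83 ± 0.69. Treml2, a receptor of the TREM family, fell by 5.78 ± 0.41, and Rasgrp2, which activates the integrin switch Rap1, fell by 4.69 ± 0.33. Leaving out 1 library moved 3 of these genes by over 1.5 times: without naive replicate 2, Ube2c had a log2 fold change of 6.46 instead of 5.86 and Tgtp1 one of -4.35 instead of -4.95, and without day 4 replicate 1 Klf3 had one of -5.76 instead of -4.94.

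**Figure D2:**
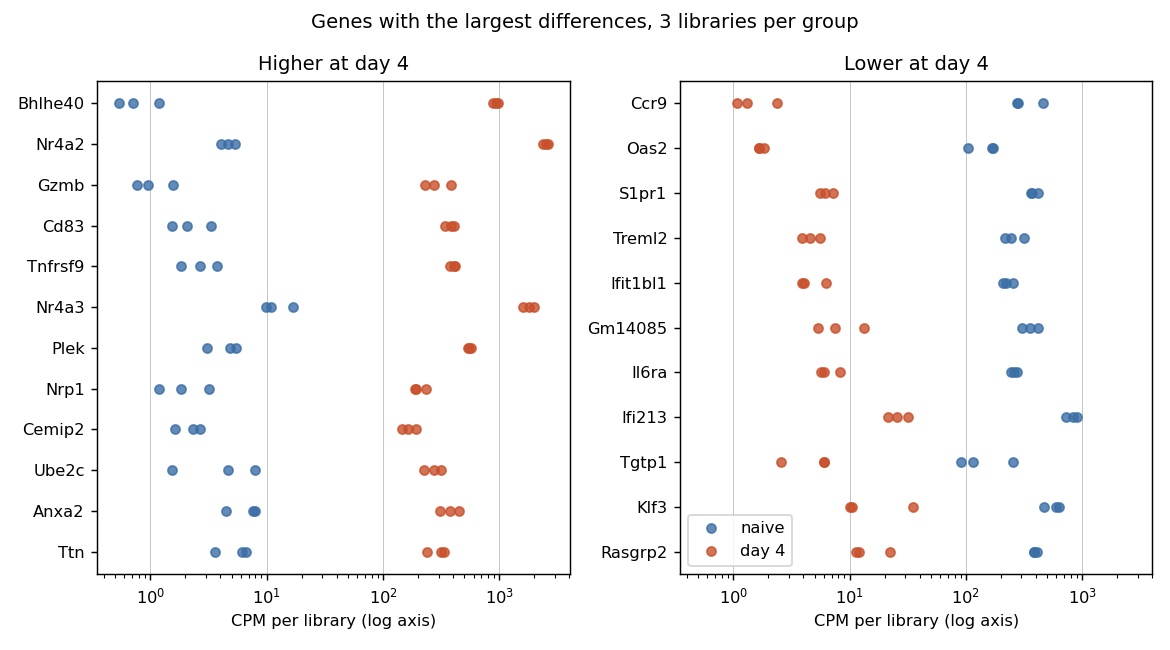
CPM per library (log axis) of abundant protein-coding genes on no marker list of another cell type, the 12 that rose most and 11 of those that fell most, 3 naive and 3 day 4 libraries. In each gene the 3 libraries of 1 group lie apart from the 3 of the other, as the choice of genes required.

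Genes for entry into and exit from lymph nodes mostly fell. Of 16 tested, 10 fell and 4 rose, with a median log2 fold change of -0.79. S1pr1, the sphingosine-1-phosphate receptor that lets T cells leave lymph nodes and tissues, was at 360, 371 and 418 CPM in naive and at 7.19, 5.59 and 6.15 CPM in day 4 libraries (log2 fold change -5.93 ± 0.57, adjusted p = 2.39e-05). Klf2, the transcription factor that drives S1pr1, was at 45.1, 64.8 and 60.3 CPM in naive and at 2.71, 1.14 and 1.0 CPM in day 4 libraries, a decrease by 5.15 ± 0.29 (adjusted p = 5.88e-10). All 3 naive libraries were high and all 3 day 4 libraries low for both genes. Itgb7, the beta 7 integrin chain, fell from a mean of 299 to 26.6 CPM, and Arhgef18, a guanine nucleotide exchange factor, from 393 to 31.5 CPM.

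Ccr7, the receptor that guides T cells to lymph node chemokines, moved against this direction. It was at 171, 179 and 216 CPM in naive and at 668, 552 and 488 CPM in day 4 libraries, so every day 4 library lay above every naive one. The log2 fold change was 1.59 ± 0.23 (adjusted p = 1.34e-04). At day 14 it was lower than at day 4 by 2.37 on the log2 scale (adjusted p = 1.28e-04). Gcnt1, a glycosyltransferase that makes core 2 O-glycans for selectin ligands, rose from 0.517, 0.478 and 0.153 CPM to 32.1, 34.7 and 29.7 CPM (log2 fold change 6.36 ± 0.29). Itgal, the alpha chain of LFA-1, rose by 0.62 ± 0.11. Fut7, a fucosyltransferase for the same ligands, was called higher (1.73 ± 0.59, adjusted p = 0.0182) although its groups overlapped, and it lost the call when any of 4 single libraries was left out.

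Regulators of the naive and stem-like state showed the same main direction. Of 20 tested, 15 fell and 3 rose, with a median log2 fold change of -1.62. Tcf7, which encodes TCF-1, the transcription factor of naive and stem-like T cells, was at 1116, 1187 and 1246 CPM in naive and at 243, 259 and 254 CPM in day 4 libraries. It fell by 2.23 ± 0.33 on the log2 scale (adjusted p = 2.88e-04), and the libraries of each group lay close together. Its partner Lef1 fell from a mean of 441 ± 34.8 to 42.7 ± 6.67 CPM (SD, n = 3). Il7r, the receptor for the survival cytokine IL-7, went from 898, 662 and 735 CPM to 57.8, 82.4 and 104 CPM (log2 fold change -3.23 ± 0.42, adjusted p = 1.49e-04). Id3, an inhibitor of E proteins in naive and memory cells, fell from 16.2, 35 and 34.1 CPM to 3.52, 2.22 and 3.94 CPM, while Id2, its counterpart in effector cells, rose from 5.25, 5.73 and 7.96 CPM to 52.0, 49.8 and 53.3 CPM. Neither pair of groups overlapped, and the log2 fold changes were -3.14 ± 0.28 and 3.03 ± 0.26.

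A few genes of stem-like cells did not fall. Slamf6, a surface marker of stem-like exhausted cells, was at 465, 343 and 346 CPM in naive and at 298, 402 and 357 CPM in day 4 libraries, with overlapping groups (log2 fold change -0.13 ± 0.22, adjusted p = 0.633). Myb, a transcription factor of stem-like cells, rose from 35.5, 24.8 and 25 CPM to 326, 291 and 241 CPM (3.33 ± 0.18). Ikzf2, the Ikaros family member Helios, rose from 42.2, 70.6 and 53.7 CPM to 719, 802 and 707 CPM (3.74 ± 0.31). Cxcr5, the follicular chemokine receptor that marks some stem-like exhausted cells, was called higher at 1.61 ± 0.49 (adjusted p = 0.0153), and the call was lost without naive replicate 2 (adjusted p = 0.055) and without naive replicate 3 (adjusted p = 0.054). Pik3ip1, an inhibitor of PI3 kinase, fell from 127, 124 and 137 CPM to 6.97, 8.71 and 6.35 CPM (-4.14 ± 0.16).

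**Figure D3:**
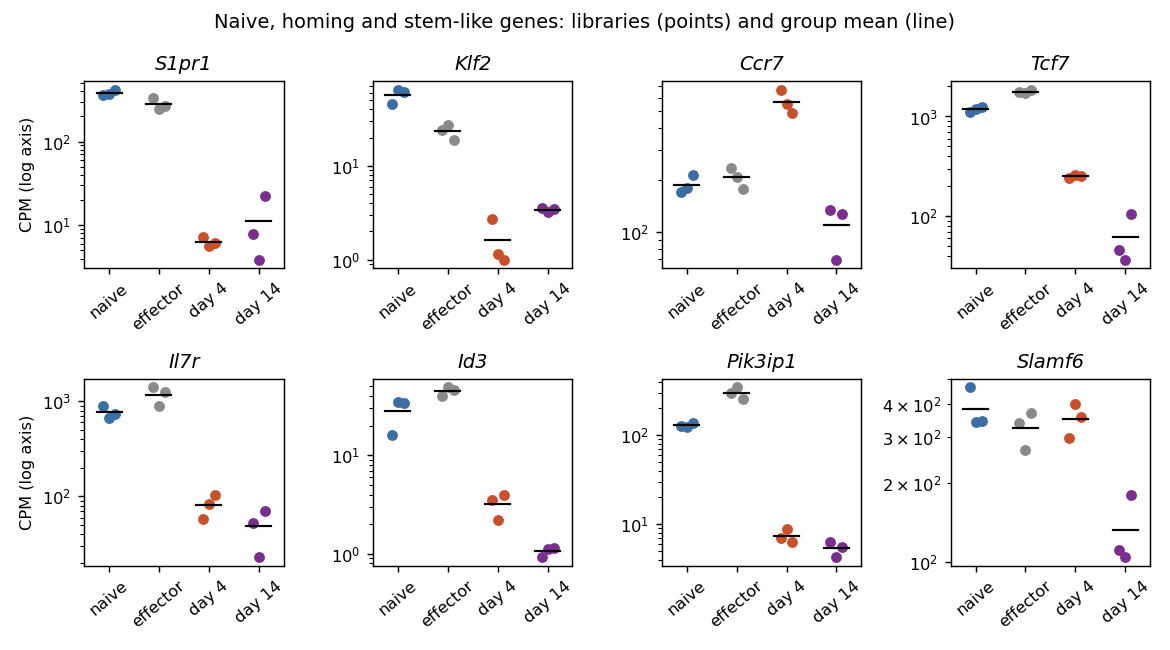
CPM (log axis) of 8 genes of naive, homing and stem-like cells in all 4 groups, 1 point per library and a line at the mean of 3. S1pr1, Klf2, Tcf7, Il7r, Id3 and Pik3ip1 are lower in every day 4 library than in every naive library, Ccr7 is higher at 488 to 668 CPM, and Slamf6 overlaps between naive and day 4.

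Genes that hold naive cells at rest fell for the most part. Of 16 genes of quiescence and growth restraint, 11 fell and 2 rose, with a median log2 fold change of -0.68. Vsir, which encodes the checkpoint VISTA that keeps naive T cells quiescent, went from 221, 205 and 234 CPM to 36.5, 33.0 and 28.0 CPM (-2.76 ± 0.11, adjusted p = 9.70e-12). Slfn5, a Schlafen family member, fell by 2.80 ± 0.26, and Txnip, a brake on glucose uptake, by 2.28 ± 0.14. Tsc22d3, a target of glucocorticoid and FOXO signalling, fell by 1.86 ± 0.16. The cell cycle inhibitor Cdkn1b fell from a mean of 221 to 120 CPM. Btg1 and Btg2, which restrain proliferation through RNA decay, were at 278 and 86.0 CPM in naive and at 303 and 93.0 CPM in day 4 libraries and were not called. The pocket protein genes Rbl2 (0.82 ± 0.12) and Rb1 (0.32 ± 0.11) rose, the latter losing its call without day 4 replicate 3 (adjusted p = 0.079).

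The GIMAP genes, small GTPases that support survival of resting lymphocytes, fell together. All 8 fell, with a median log2 fold change of -1.54 and no overlap of the groups in any. They lie side by side on chromosome 6, from 48647234 to 48770851 (GRCm38), a span of 123.6 kb. That span holds 12 genes that were tested, of which 11 fell and none rose. Gimap3 went from 550, 494 and 534 CPM to 100, 115 and 117 CPM (-2.25 ± 0.09, adjusted p = 4.87e-12), and Gimap8 from 452, 400 and 425 CPM to 98.0, 118 and 118 CPM (-1.93 ± 0.09). The smallest decreases were those of Gimap1 and Gimap5, both of -0.80. Counting did not use strand, so reads of overlapping genes in the cluster cannot be assigned with certainty.

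Transcription factors linked to exhaustion rose almost throughout. Of 19 tested, 18 rose and none fell, with a median log2 fold change of 3.03. Nr4a2, a nuclear receptor induced by T cell receptor signals, was at 4.06, 5.34 and 4.67 CPM in naive and at 2620, 2518 and 2369 CPM in day 4 libraries (9.06 ± 0.30, adjusted p = 6.27e-10). Nr4a3 rose from 10.8, 9.88 and 16.8 CPM to 1988, 1599 and 1808 CPM (7.17 ± 0.29). Nr4a1 rose from 5.10, 7.41 and 11.3 CPM to 156, 122 and 147 CPM (4.16 ± 0.25). All 3 family members separated the groups by over 10 times, and none differed between day 14 and day 4 by the test (adjusted p = 0.51 for Nr4a2, 0.094 for Nr4a3 and 0.98 for Nr4a1). For Nr4a3, however, every day 14 library (1186, 1031 and 1251 CPM) lay below every day 4 library (-0.64 ± 0.22).

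Tox, which encodes the high-mobility-group factor needed for lasting exhaustion, was at 112, 114 and 107 CPM in naive and at 310, 416 and 380 CPM in day 4 libraries. The groups did not overlap, and the log2 fold change of 1.74 ± 0.12 (adjusted p = 4.04e-09) was lower than the median of the list. Zeb2, a zinc-finger repressor of terminal effector cells, rose by 6.42 ± 0.32, and Irf4, which links receptor signal strength to metabolism, from a mean of 10.7 to 202 CPM. The T-box factors Tbx21 and Eomes rose from 3.13 to 33.0 CPM and from 43.2 to 147 CPM. Ikzf3, the Ikaros family member Aiolos, was the 1 member without a call (272 and 239 CPM). It was called lower when counts were scaled by library totals or upper quartiles, and without day 4 replicate 3.

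Immediate early genes, which switch on within minutes of a signal, rose as well. Of 17, 16 rose and 1 fell, with a median log2 fold change of 3.32. Dusp1, a phosphatase that turns off MAP kinases, went from 6.65, 5.81 and 10.3 CPM to 388, 394 and 337 CPM (5.61 ± 0.27). Fosl2, an AP-1 subunit, went from 15.3, 13.1 and 19.2 CPM to 527, 385 and 399 CPM (4.78 ± 0.31), and Jun from 1.63, 2.95 and 2.99 CPM to 62.5, 83.4 and 50 CPM (4.70 ± 0.38). Tnfaip3, which encodes the NF-kappaB inhibitor A20, rose by 4.45 ± 0.17. Zfp36, an RNA-decay factor, was the exception and fell by 0.68 ± 0.15 (adjusted p = 1.33e-03).

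Most inhibitory receptor genes rose. Of 16 tested, 12 rose and 1 fell, with a median log2 fold change of 3.85. Pdcd1, which encodes PD-1, was at 1.11, 0.717 and 0.153 CPM in naive and at 373, 353 and 409 CPM in day 4 libraries (9.14 ± 0.35, adjusted p = 1.73e-09). Tigit, a receptor for nectin family ligands, went from 0.813, 0.398 and 0.383 CPM to 300.4, 278 and 272 CPM (9.02 ± 0.56). Ctla4, which competes with CD28 for its ligands, went from 0.739, 1.59 and 1.30 CPM to 433, 375 and 512 CPM (8.51 ± 0.27). In each of these genes every day 4 library lay far above every naive library.

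Lag3, a receptor for MHC class II, rose from 0.0739, 0.159 and 0.306 CPM to 50.5, 70.3 and 68.1 CPM (8.39 ± 0.65). Havcr2, which encodes TIM-3, was at 0.591, 0.796 and 0.383 CPM in naive and at 106, 118 and 223 CPM in day 4 libraries. Day 4 replicate 3 was the highest, and the log2 fold change was 7.96 ± 1.23 (adjusted p = 5.26e-04). The effector libraries, which also enter that SE, were at 2.73, 29.0 and 1.78 CPM. Entpd1, the ATP-degrading enzyme CD39 of late exhausted cells, rose from 0.443, 0.717 and 0.153 CPM to 9.10, 8.77 and 18.2 CPM (4.76 ± 0.57), again with replicate 3 highest. That library also had the highest macrophage marker sum, and its part in both values was not tested. The exception was Lair1, a collagen receptor, which fell by 2.87 ± 0.31. Btla, Nt5e and Cd96 were not called. Btla was called higher without day 4 replicate 1, with no filter on low counts or with the 6 libraries alone, and Cd96 lower when scaled by library totals or upper quartiles. Single naive libraries moved 2 of the values, to 9.76 for Pdcd1 without naive replicate 1 and to 9.01 for Lag3 without naive replicate 3.

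**Figure D4:**
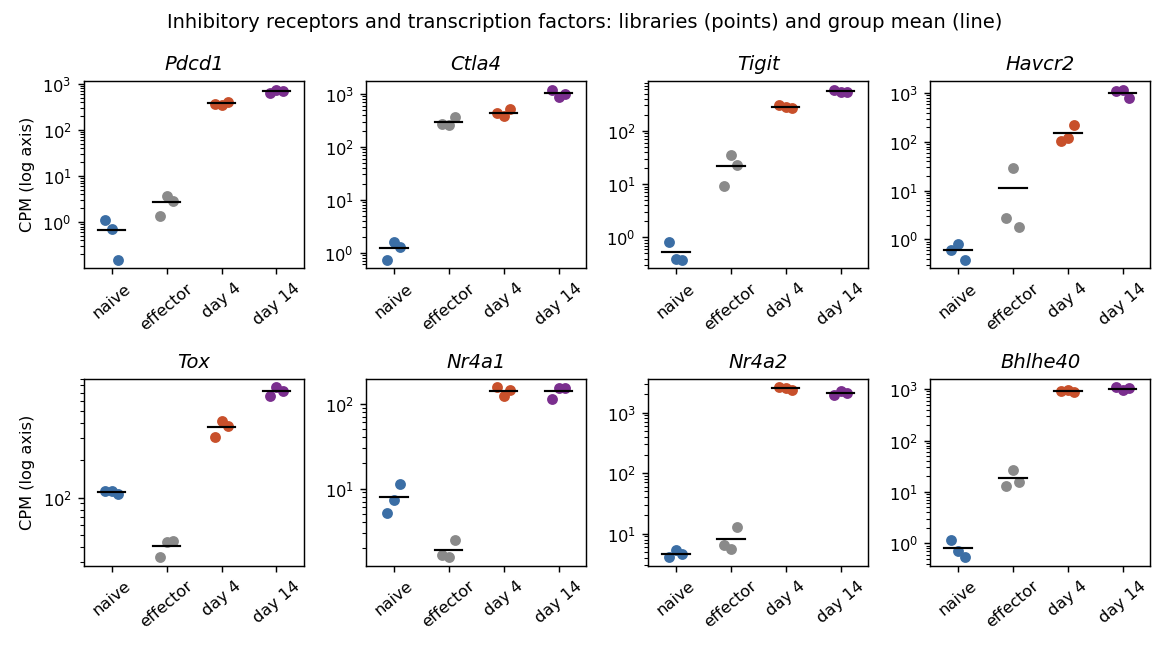
CPM (log axis) of 4 inhibitory receptors and 4 transcription factors in all 4 groups, 1 point per library and a line at the mean of 3. In all 8 genes the 3 day 4 libraries lie above the 3 naive ones, and Tox and Nr4a1 are lower in effector than in naive cells.

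Costimulatory receptors changed in both directions, also within the TNF receptor and SLAM families. Of 14 tested, 8 rose and 5 fell, with a median log2 fold change of 1.16. Tnfrsf9, which encodes 4-1BB, went from 3.77, 1.83 and 2.68 CPM to 419, 378 and 408 CPM (7.17 ± 0.17, adjusted p = 1.83e-14). Tnfrsf4, which encodes OX40, went from 3.03, 5.26 and 4.75 CPM to 204, 198 and 210 CPM (5.55 ± 0.16). Tnfrsf18, which encodes GITR, rose by 3.26 ± 0.15, and Icos and Cd28 rose from means of 79.9 to 442 CPM and 226 to 526 CPM. Of other TNF receptor genes, Cd27 fell by 0.47 ± 0.08 and Tnfrsf25 by 4.49 ± 0.48. Cd40lg, the ligand of CD40, fell from 14.3, 5.89 and 10.4 CPM to 0.293, 0.961 and 1.54 CPM (-3.43 ± 0.76). Among the receptors of the SLAM family, Slamf7 rose by 4.82 ± 0.44 and Cd84 fell by 0.99 ± 0.10. Cd226, the activating partner of Tigit, was called lower with overlapping groups (-0.36 ± 0.12, adjusted p = 0.0131) and lost its call when any of 4 single libraries was left out.

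Cytotoxic genes rose unevenly. Of 18 tested, 12 rose and 1 fell, with a median log2 fold change of 1.74. Gzmb, which encodes the protease granzyme B, went from 1.55, 0.956 and 0.765 CPM to 275, 228 and 385 CPM. The groups were far apart, and the log2 fold change was 8.07 ± 1.26 (adjusted p = 5.69e-04). The effector libraries, which also enter that SE, were at 10.9, 189 and 32.3 CPM. Prf1, which encodes the pore-forming protein perforin, was at 39.2, 46 and 39.3 CPM in naive and at 35.6, 40.9 and 53.3 CPM in day 4 libraries. These groups overlapped, and the difference did not pass the test (0.06 ± 0.24, adjusted p = 0.84). The granule protease gene Ctsc, whose product activates granzymes, fell by 0.69 ± 0.14. The granzyme inhibitor Serpinb9 rose from 26.5, 29.5 and 26.2 CPM to 251, 214 and 254 CPM (3.13 ± 0.12), and Serpinb6b, a related serpin, by 3.58 ± 0.27. Ifng, the gene of interferon gamma, rose from 0, 0.319 and 0.0765 CPM to 46.2, 44.8 and 52.4 CPM (8.45 ± 0.46, and 10.03 without naive replicate 2). Gzma, Gzmm, Lamp1 and Ctsw were not called. Lamp1 (0.28, adjusted p = 0.055) was called higher with DESeq2, with no filter on low counts, with the 6 libraries alone and with a replicate block. It was also called higher without day 4 replicate 2 or 3 and without naive replicate 3. Gzma was called higher with the 6 libraries alone.

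Secreted signals to other leukocytes rose in number and size. Of 22 chemokine, cytokine and growth factor genes, 18 rose and 3 fell, with a median log2 fold change of 4.30, or 3.57 when genes without a naive count are set at the smallest fold that 3 counts in the naive group allow. Xcl1, the chemokine that attracts cross-presenting dendritic cells, went from 1.03, 0.239 and 0.459 CPM to 324, 350 and 378 CPM (9.20 ± 0.64, and 9.94 without naive replicate 1). Ccl3 had 3 counts in the naive libraries together and was at 33.5, 30.1 and 56.9 CPM at day 4, a 522-fold difference by counts with a 95% counting interval of 178 to 2532. Ccl4 had 1 naive count and was at 7.63, 8.47 and 18.5 CPM at day 4, a 452-fold difference with an interval of 80.7 to 17874. Both encode chemokines that attract monocytes and T cells, and both were highest in day 4 replicate 3, the library with the highest macrophage marker sum (260 CPM). The part of macrophage RNA in them was not tested. These intervals cover counting error only.

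Ccl5, another chemokine that attracts T cells and monocytes, started higher in naive cells and rose less. It was at 3.10, 8.04 and 1.76 CPM in naive and at 24.7, 26.1 and 43.1 CPM in day 4 libraries (2.87 ± 0.68, adjusted p = 5.84e-03, and 3.69 without naive replicate 2). Csf1, the growth factor of macrophages, rose from 0.296, 1.11 and 0.153 CPM to 15.2, 22.9 and 15.0 CPM (5.08 ± 0.51, adjusted p = 1.75e-06, and 6.26 without naive replicate 2). Both genes separated the groups without overlap. Of genes named here after their values were seen, Ccl1, a ligand of CCR8, had no naive count and was at least 539-fold higher, and Csf2, the growth factor GM-CSF, was at least 73.0-fold higher. The genes that fell were Flt3l (-3.03 ± 0.13), the dendritic cell growth factor, Il16 (-2.30 ± 0.14), which attracts CD4-bearing cells, and Ltb (-1.46 ± 0.11), a subunit of lymphotoxin.

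Chemokine receptors of inflamed tissue rose. Of 13 tested, 9 rose and none fell, with a median log2 fold change of 3.79. Ccr6, the CCL20 receptor, went from 0.813, 0.478 and 0.306 CPM to 132, 158 and 143 CPM (8.05 ± 0.60, adjusted p = 1.61e-06). Cxcr3, the receptor for interferon-induced chemokines, went from 10.6, 13.0 and 4.29 CPM to 22.3, 34.1 and 46.9 CPM (1.89 ± 0.40). Ccr8, also named after its values were seen, had no naive count and was at least 582-fold higher. Ccr4, Gpr183, Cxcr6 and Cysltr1 were not called, with Cxcr6 called higher without day 4 replicate 1. Cxcr4 (0.40 ± 0.13) lost its call without day 4 replicate 1 and without naive replicates 2 or 3.

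Receptors for cytokines changed in both directions. Of 23 genes of cytokine receptors and their feedback, 15 rose and 5 fell, with a median log2 fold change of 1.84. Il2ra, the high-affinity chain of the IL-2 receptor, went from 0.961, 1.75 and 1.68 CPM to 279.9, 266 and 301 CPM (7.59 ± 0.40, adjusted p = 8.65e-08), while Il2rg, the shared gamma chain, fell by 0.53 ± 0.09. Il18rap, a chain of the IL-18 receptor, rose from 33.4, 50.7 and 13.5 CPM to 488, 552 and 532 CPM (4.01 ± 0.41). Ifngr2, the signalling chain of the interferon gamma receptor, fell from 45.4, 33.1 and 43.8 CPM to 2.49, 2.40 and 1.40 CPM (-4.27 ± 0.35), and Ifngr1, the binding chain, was not called (155 and 176 CPM). Il27ra fell by 2.6 ± 0.14. Cish, a feedback inhibitor induced by STAT5, rose by 4.10 ± 0.38, and Socs3 fell by 1.04 ± 0.30.

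Adhesion and residency genes divided as well. Of 15 tested, 7 rose and 5 fell, with a median log2 fold change of -0.10, which became 0.29 without day 4 replicate 1 and 0.07 without day 4 replicate 2. Itgb1, the beta 1 integrin chain that binds matrix, rose from 56.2, 59.7 and 63.1 CPM to 1237, 1709 and 1509 CPM (4.64 ± 0.39). Rgs16 and Rgs1, which dampen chemokine receptor signals, rose by 9.67 ± 0.19 and 5.83 ± 0.27. Cd44 rose from 26.8, 17.7 and 25.5 CPM to 421, 399.5 and 423 CPM (4.15 ± 0.23), and the day 4 cells were sorted for the protein it encodes. Itgae, which encodes CD103, the integrin of epithelial residency, fell from 112, 138 and 122 CPM to 5.79, 13.3 and 8.02 CPM (-3.77 ± 0.60, adjusted p = 6.33e-04). Cd69, which marks recent activation and residency, was at 64.8, 87.1 and 77.3 CPM in naive and at 73.3, 74.0 and 58.5 CPM in day 4 libraries and was not called (-0.15 ± 0.23, adjusted p = 0.573). Runx3 and Selplg fell by 0.56 ± 0.14 and 0.91 ± 0.09. The decreases of the integrin genes Itga6 (-0.45) and Itgb3 (-0.82) were each lost in 5 of 12 alternatives.

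The T cell receptor complex changed less. Of 23 genes of the complex and its proximal kinases, 11 fell and 5 rose, with a median log2 fold change of -0.28. Cd3e fell from 727, 643 and 718 CPM to 435, 484 and 526 CPM (-0.53 ± 0.08), and Cd247, the zeta chain, by 1.40 ± 0.09. The 2 chains of CD8 differed: Cd8b1 went from 862, 861 and 958 CPM to 283, 302 and 345 CPM (-1.53 ± 0.10, adjusted p = 1.51e-09), while Cd8a was at 1135, 1136 and 1174 CPM and 897, 1058 and 1133 CPM (-0.16 ± 0.09, adjusted p = 0.128). Cd8a was called lower when scaled by library totals (adjusted p = 0.042) or by upper quartiles (adjusted p = 0.04). Dgka, a kinase that removes the second messenger diacylglycerol, fell from 1554, 1541 and 1650 CPM to 186, 196 and 195 CPM (-3.04 ± 0.13), and its relative Dgkz rose by 0.51 ± 0.09. Cblb, a ubiquitin ligase that limits T cell receptor signals, rose from 210, 180 and 172 CPM to 591, 533 and 642 CPM (1.65 ± 0.11). Zap70 (0.36 ± 0.11) and Lcp2 (0.71 ± 0.10) rose, and the increase of Fyn (0.30 ± 0.12) lost its call under 7 of 12 alternatives.

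Cell cycle genes rose in nearly every case. All 24 mitosis genes rose, with a median log2 fold change of 4.61, and 22 of 23 DNA replication genes rose, with a median of 2.74. Mki67, the gene of the proliferation antigen Ki-67, was at 72.8, 144 and 39.4 CPM in naive and at 2093, 2224 and 2178 CPM in day 4 libraries (4.67 ± 1.06, adjusted p = 4.62e-03, and 5.29 without naive replicate 2). Naive replicate 2 was the highest of the naive libraries and naive replicate 3 the lowest. The effector libraries, which also enter the SE of Mki67, were at 42.8, 580 and 60.8 CPM. Ube2c, a ubiquitin-conjugating enzyme of mitotic exit, went from 4.66, 7.88 and 1.53 CPM to 275, 224 and 316 CPM (5.86 ± 1.23), and Ccnb1, a cyclin of mitotic entry, from 2.0, 2.87 and 0.689 CPM to 65.5, 69.3 and 82.6 CPM (5.29 ± 0.69). Bub1, a kinase of the spindle checkpoint, rose by 5.09 ± 0.92.

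Of the replication genes, Cdc6, which loads the replicative helicase, went from 1.92, 3.19 and 1.84 CPM to 68.3, 49.7 and 48.4 CPM (4.58 ± 0.57). Rrm2, the small subunit of ribonucleotide reductase, went from 5.47, 11.2 and 5.36 CPM to 183, 166 and 199 CPM (4.64 ± 0.68), and Gins2, a helicase subunit, from 3.25, 4.06 and 2.76 CPM to 66.5, 60.8 and 70.2 CPM (4.29 ± 0.24). Each day 4 library lay over 10 times above each naive library in these 3 genes. Mcm10 rose by 5.16 ± 0.87, or 6.02 without naive replicate 2. Cdt1, a licensing factor controlled mainly by protein decay, was the 1 gene without a call (19.0 and 21.9 CPM), and it was called higher without day 4 replicate 3. No gene of either list passed the test between day 14 and day 4. The melanoma marker sum moved with both lists, and its part in them was not tested.

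Mitosis genes share promoter elements, and 2 of them are shown because they carry these elements just upstream of the start. The searched letters were CCAAT, the CCAAT box bound by NF-Y, and TTTGAA, the cell cycle homology region, on both strands within 250 bases before and 50 bases after the start. The promoter table of RefSeq (GRCm38.p6) held 20 of the 24 mitosis genes with 21 promoters. Both elements occurred in 16 of the 21 (76.2%) and in 6.95% of all 32851 promoters of the same length. The E2F letters TTTGGCGC or TTTCCCGC occurred in 8 of 21 promoters of DNA replication genes (38.1%) and in 1.56% of all. A match of letters is a description and not a site shown to be used. The 250 bases before the start follow, 5′ to 3′ on the gene's strand, with the matched letters of either strand in capitals: CCAAT and TTTGAA for Ube2c (chr2:164769679-164769928, plus strand) and Mki67 (chr7:135716380-135716629, minus strand). Starts are those of RefSeq, and for Ube2c the GENCODE gene start lies inside the printed bases.
Ube2c: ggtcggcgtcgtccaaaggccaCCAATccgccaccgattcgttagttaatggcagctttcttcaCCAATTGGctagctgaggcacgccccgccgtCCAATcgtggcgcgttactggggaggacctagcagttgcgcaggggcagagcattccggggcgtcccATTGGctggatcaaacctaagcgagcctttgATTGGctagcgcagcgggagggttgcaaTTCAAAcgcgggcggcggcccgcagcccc
Mki67: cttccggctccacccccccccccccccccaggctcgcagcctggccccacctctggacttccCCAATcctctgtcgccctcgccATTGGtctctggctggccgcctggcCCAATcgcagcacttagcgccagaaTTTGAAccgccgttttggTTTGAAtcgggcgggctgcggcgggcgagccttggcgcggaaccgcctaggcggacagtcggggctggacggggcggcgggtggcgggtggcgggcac

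Genes of the type I interferon response fell. Of 22 tested, 20 fell and none rose, with a median log2 fold change of -2.69, the lowest of the 28 function lists. Oas2, an RNA sensor that activates RNase L, was at 104, 168 and 171 CPM in naive and at 1.83, 1.68 and 1.67 CPM in day 4 libraries (-6.41 ± 0.34, adjusted p = 7.15e-09). Ifit3, an antiviral protein induced by interferon, went from 39.6, 88.8 and 52.7 CPM to 2.35, 2.34 and 4.01 CPM (-4.38 ± 0.48), and Ifit1 from 30.9, 69.1 and 61.4 CPM to 1.47, 2.88 and 3.88 CPM (-4.28 ± 0.50). Every day 4 library lay below every naive library in these 3 genes. Ifi213 and Ifit1bl1, related interferon-induced genes, fell by 4.95 ± 0.17 and 5.59 ± 0.17. Ifi44 was not called. It was at 6.88 and 0.883 CPM (adjusted p = 0.054) and it was called lower under 3 of 12 alternatives, both other scalings and the fit of the 6 libraries alone.

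The interferon gamma response and MHC class I list moved the same way with smaller changes: 13 of 19 fell and none rose, with a median of -0.34. Gbp4, a guanylate-binding protein, went from 326, 639 and 329 CPM to 53.1, 70.8 and 88.6 CPM (-2.6 ± 0.33), and Irgm1, an immunity-related GTPase, from 63.8, 149 and 78.5 CPM to 14.0, 20.1 and 14.7 CPM (-2.57 ± 0.38). Naive replicate 2 was the highest library for these genes. Without day 4 replicate 1, 8 of the 19 fell and 2 rose, and without naive replicate 2, 8 fell and 3 rose. The MHC class I genes H2-K1, H2-D1 and B2m fell by 0.22, 0.24 and 0.23 on the log2 scale, and each lost its call in at least 4 of 12 alternatives.

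Interferon-stimulated genes are known for a promoter element bound by interferon-activated factors, and 2 promoters are shown for it. The letters GAAANNGAA, on both strands, occurred in 10 of 17 promoters of the type I list (58.8%), which cover 16 of its genes in the RefSeq table, and in 8.56% of all promoters. Other letters and lists were also searched, and the pairs reported for mitosis, replication and interferon genes are a selection. The NR4A element AAAGGTCA occurred in 0 of 15 promoters of inhibitory receptors and 0 of 25 of exhaustion-associated factors, against 1.51% of all. The bases before the start of Ifit1 (chr19:34640639-34640888, plus strand) and Ifit3 (chr19:34583279-34583528, plus strand) follow as above, GRCm38.p6, with matches in capitals. The GENCODE gene start of Ifit1 lies inside its printed bases.
Ifit1: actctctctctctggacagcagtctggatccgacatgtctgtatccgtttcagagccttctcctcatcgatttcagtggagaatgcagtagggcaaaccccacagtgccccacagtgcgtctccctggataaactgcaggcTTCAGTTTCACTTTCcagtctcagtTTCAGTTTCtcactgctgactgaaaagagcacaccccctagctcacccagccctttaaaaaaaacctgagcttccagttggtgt
Ifit3: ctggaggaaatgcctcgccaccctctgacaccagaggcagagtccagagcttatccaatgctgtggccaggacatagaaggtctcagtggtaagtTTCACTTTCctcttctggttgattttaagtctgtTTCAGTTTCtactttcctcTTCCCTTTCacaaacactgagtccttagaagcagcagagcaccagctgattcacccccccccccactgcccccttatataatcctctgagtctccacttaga

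All 18 glycolysis genes rose, with a median log2 fold change of 1.91. Hk2, the inducible hexokinase, went from 1.03, 1.51 and 1.38 CPM to 93.2, 107 and 85.9 CPM (6.18 ± 0.30, adjusted p = 1.15e-09), and Tpi1, triose phosphate isomerase, from 23.6, 20.9 and 21.6 CPM to 455, 389 and 392 CPM (4.22 ± 0.18). Gapdh, often used as a reference gene, rose from 148, 177 and 184 CPM to 1216, 1165 and 1180 CPM (2.81 ± 0.10). Hk1, the constitutive hexokinase, rose by 0.34 and was the least changed of the list. Respiratory chain and ATP synthase genes rose in 22 of 23 cases with a median of 0.93, led by Cycs, cytochrome c (1.56 ± 0.14). The mitochondrial ATP synthase gene Atp5b went from 439, 509 and 539 CPM to 1147, 1100 and 1244 CPM (1.23 ± 0.08).

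Biosynthesis followed. In one-carbon, nucleotide and polyamine synthesis 17 of 20 genes rose and none fell, with a median log2 fold change of 1.09. Odc1, the first enzyme of polyamine synthesis, stood out at 65.7, 56.1 and 50.1 CPM in naive and 1870, 1201 and 1175 CPM in day 4 libraries (4.63 ± 0.22). Psat1, of serine synthesis, rose by 2.28 ± 0.17, and the mitochondrial folate enzyme Mthfd2 by 1.93 ± 0.18. In cholesterol and fatty acid synthesis 17 of 24 rose and 3 fell (median 0.95), with Cyp51 at 3.08 ± 0.29 and Idi1 at 2.88 ± 0.21. Elovl6, a fatty acid elongase, fell by 0.78 ± 0.15, and the decreases of Fdps and Lss were lost in 8 and 2 of 12 alternatives. Of 10 amino acid transporters tested, 8 rose and none fell (median 0.90): Slc7a1, a carrier of arginine, went from 94.6, 105 and 84.0 CPM to 383, 372 and 363 CPM (1.98 ± 0.12), and Slc7a5, a carrier of large neutral amino acids, rose by 1.78 ± 0.26.

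Genes of the hypoxia response rose with exceptions. Of 15 tested, 12 rose and 2 fell, with a median log2 fold change of 1.12. Ndrg1, a stress-induced gene, went from 5.54, 9.0 and 11.5 CPM to 76.1, 45.8 and 46.7 CPM (2.70 ± 0.35), and P4ha1, a collagen prolyl hydroxylase, from 25, 25.1 and 27.7 CPM to 65.2, 54.1 and 49.5 CPM (1.12 ± 0.15). Both separated the groups. Pdk1, the kinase that blocks pyruvate entry into mitochondria and a usual hypoxia target, fell from 355, 284 and 332 CPM to 96.3, 79.3 and 68.7 CPM (-1.99 ± 0.14, adjusted p = 5.02e-09), and the histone demethylase Kdm3a fell by 0.50 ± 0.10. The melanoma and fibroblast marker sums moved with this list, and their part in it was not tested.

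Protein folding genes rose, and ribosomal protein genes changed little. Of 17 genes of the unfolded protein and integrated stress responses, 14 rose and 1 fell, with a median log2 fold change of 1.17. Hspa5, the chaperone BiP, went from 362, 515 and 539.6 CPM to 1809, 1548 and 1336 CPM (1.73 ± 0.14), and Sdf2l1, its partner, rose by 2.50 ± 0.20. Xbp1, a transcription factor of the response, rose by 1.48 ± 0.12, while the co-chaperone Dnajc3 fell by 0.70 ± 0.08. Ribosome biogenesis genes rose in 12 of 18 cases (median 0.51), with the nucleolar proteins Ncl and Npm1 at 1.18 ± 0.09 and 1.14 ± 0.10. Of 22 cytosolic ribosomal protein genes 2 rose and 6 fell (median -0.04). Rps2 rose by 0.62 ± 0.10, and the increase of Rpl7 (0.20 ± 0.08) was lost under both other scalings and on leaving out any of 4 single libraries.

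Survival and death genes changed in both directions. Of 17 genes of the BCL-2 family and death receptors, 12 rose and 4 fell, with a median log2 fold change of 0.97. Bcl2, the survival factor of naive cells downstream of IL-7, went from 417, 388 and 295 CPM to 102, 135 and 115 CPM (-1.64 ± 0.16, adjusted p = 5.45e-07), and Mcl1 fell by 0.76 ± 0.08. Bcl2l1, which encodes the related protein BCL-XL, went from 2.88, 4.62 and 3.06 CPM to 40.2, 37.2 and 35.6 CPM (3.42 ± 0.28). No library of one group reached the range of the other. The pro-death genes Bcl2l11, which encodes BIM, and Pmaip1, which encodes NOXA, rose by 1.90 ± 0.18 and 2.64 ± 0.18, and Bbc3, which encodes PUMA, fell by 1.79 ± 0.50. The initiator caspase gene Casp8 fell by 0.82 ± 0.09.

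**Figure D5:**
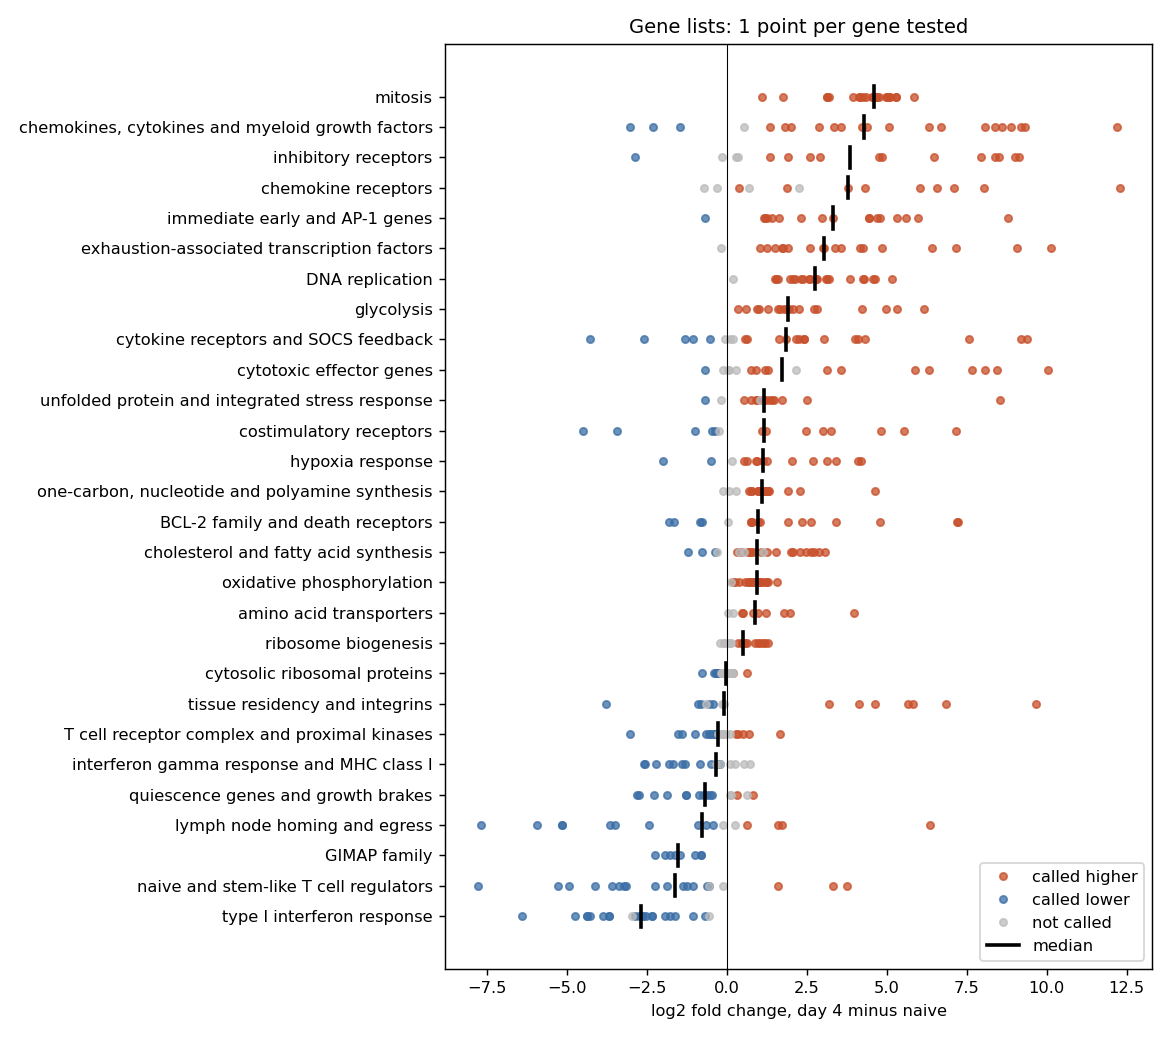
Log2 fold change (day 4 minus naive) of every tested gene of 28 function lists, 1 point per gene, coloured by whether it was called higher, called lower or not called, with a bar at each list's median. Medians run from -2.69 for the type I interferon response to 4.61 for mitosis, against 0.03 for all genes tested.

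Day 4 cells were then compared, in the same fit, with effector cells activated in culture. It called 10174 genes (61.9% of those tested), 5372 higher (32.7%) and 4802 lower (29.2%) at day 4. This comparison shares the day 4 libraries with the one above, so its values are only set beside the others. Effector cells themselves differed from naive cells in 24.9% of genes tested (14.6% higher, 10.4% lower), and day 14 cells in 62.1% (33.6% higher, 28.5% lower). All 24 mitosis genes (median 3.23) and all 23 DNA replication genes (median 2.59) were higher at day 4 than in effector cells, and so were 16 of 19 exhaustion-associated transcription factors and 16 of 17 immediate early genes. The effector libraries differed widely among themselves in some cell cycle genes, with replicate 2 highest. Mki67 was at 42.8, 580 and 60.8 CPM in them and Ube2c at 1.94, 72.1 and 6.50 CPM, while Gins2 varied less (2.88, 5.85 and 2.86 CPM). Glycolysis genes were higher in 13 of 18 cases and lower in 1. The type I interferon list was lower in 16 of 22 cases and the GIMAP genes in 8 of 8. Some genes that had risen from naive cells were not called against effector cells: Gzmb (1.94, adjusted p = 0.075) and Slamf7 (0.71, adjusted p = 0.11). In both, every day 4 library still lay above every effector library. Gzmb was at 10.9, 189 and 32.3 CPM in effector and at 275, 228 and 385 CPM in day 4 libraries. Slamf7 was at 76.2, 98.7 and 104 CPM in effector and at 111, 189 and 155 CPM in day 4 libraries. Ctla4 differed by 0.57 (adjusted p = 0.012), and Ccl5 and Cxcr3 were lower at day 4 than in effector cells, by 1.94 and 2.33 on the log2 scale.

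Between day 14 and day 4 the test called 1984 genes (12.1% of those tested), 1178 higher (7.17%) and 806 lower (4.91%) at day 14, and this comparison also shares the day 4 libraries. Without day 14 replicate 2 it called 1283. Of the 20 naive and stem-like regulators 13 were lower at day 14 than at day 4 and none was higher. Tcf7 was lower by 2.02 (adjusted p = 4.17e-03) and Slamf6 by 1.41 (adjusted p = 2.1e-03). Of 16 inhibitory receptors 7 were higher at day 14 and 1 was lower, with Ctla4 higher by 1.22, Pdcd1 by 0.88 and Entpd1 by 2.53. Tox was higher by 0.96 (adjusted p = 6.0e-05), and Prf1 by 2.41 (adjusted p = 9.3e-05). Ccl3, Ccl4 and Ccl5 were higher by 2.37, 2.16 and 3.94. Some type I interferon genes were higher at day 14 than at day 4, 8 of 22, and none was lower. For Havcr2 (2.78, adjusted p = 0.055), Gzmb (1.86, adjusted p = 0.22) and Csf1 (0.80, adjusted p = 0.19) the difference did not pass the test. In Havcr2 and Gzmb every day 14 library still lay above every day 4 library. Havcr2 was at 106, 118 and 223 CPM at day 4 and at 1092, 1190 and 792 CPM at day 14. Gzmb was at 275, 228 and 385 CPM at day 4 and at 1304, 965 and 950 CPM at day 14. The Csf1 groups overlapped.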

How the data were processed

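The authors sorted cells into lysis buffer, captured mRNA on beads, amplified cDNA (Ovation RNA-Seq System V2) and made Nextera XT libraries, per the labels' protocols. Amplification can widen the spread of low genes, and libraries with few coding reads had been rejected. The submitters' processing notes name fastp 0.19.6, STAR 2.6.1b and GRCm38; the sources used here give neither annotation release nor counting options. The deposited values are read counts per gene, and the unstranded column was used, so antisense and overlapping genes cannot be separated. Summary lines were left out. In the 6 libraries they held reads outside genes (20.7% to 30.2% of each library) and unmapped reads (4.90% to 5.52%). They also held reads mapped to several places (5.90% to 7.29%) and ambiguous reads (3.22% to 3.47%). Symbols came from GENCODE M21 (55141 of 55401 identifiers matched, 260 did not).

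Counts of all 12 libraries were fitted with edgeR 4.0.16 in R 4.3.3 (TMM factors, filterByExpr, robust quasi-likelihood F test, 8 residual degrees of freedom), with Benjamini-Hochberg adjustment over 16426 genes and a threshold of 0.05. The standard error is the log2 fold change divided by the square root of F. Two-sided tests were used throughout. Alternatives were DESeq2 1.42.0, other scalings, no filter on low counts, the compared groups alone, a replicate block and leaving out each library.

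The members and gene lists were chosen with earlier results of these data known. Genes were named by rule: the 12 highest and 12 lowest fold changes among called protein-coding genes with mean log2 CPM of at least 4, groups that do not overlap and no place on a marker list; from each list up to 4 called members with the largest changes and mean log2 CPM of at least 3, and any called member against the list's majority; the marker with the highest level at day 4 of each list; and a panel of 32 genes. Named outside this rule, after their values were seen, were list members without a call, defining markers at or near 0, and Ccl1, Csf2, Ccr8, C1qb, Cd14, Cd4, Zbtb7b, Vwf, Itgb7, Arhgef18, Lef1, Cdkn1b, Gimap1, Gimap5, Irf4, Tbx21, Icos, Cd28, Hk1, H2-K1, H2-D1 and B2m. Some genes that the rule names are not reported here.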

Additional observations from a re-analysis of the deposited data

Results flagged for a closer look

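Each gene here was called against naive cells in both of a pair of groups, in opposite directions and by at least 1.5-fold. The test of the difference itself also passed (edgeR's quasi-likelihood test, Benjamini-Hochberg adjustment). Opposite calls against the same naive libraries make that outcome nearly certain, so it adds no separate support. Of 32 such opposite calls among the named genes, 15 met that size.

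Genes that rose at day 4 and fell in effector cells were Nr4a1 (log2 changes from naive 4.16 and -2.06, difference 6.22), Cd74 (3.35 and -1.74, difference 5.09), Tox (1.74 and -1.45, difference 3.18), Eomes (1.77 and -1.15, difference 2.92), Slc7a1 (1.98 and -0.83, difference 2.81) and Slc7a5 (1.78 and -0.97, difference 2.74). Cd74 belongs to the MHC class II list, whose sum rose with the day 4 group, and the part of other cells in it was not tested.

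Genes that fell at day 4 and rose in effector cells were Gm14085 (-5.38 and 1.93, difference -7.32), Pik3ip1 (-4.14 and 1.2, difference -5.34), Gimap3 (-2.25 and 0.85, difference -3.10), Il16 (-2.30 and 0.61, difference -2.91), Elovl6 (-0.78 and 1.65, difference -2.44), Ltb (-1.46 and 0.97, difference -2.43), Gimap6 (-1.61 and 0.66, difference -2.28) and Selplg (-0.91 and 0.68, difference -1.59). Ccr7 rose at day 4 (1.59) and fell at day 14 (-0.77), a difference of 2.37.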

How the results depend on the processing

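Under 12 alternatives the day 4 versus naive test called 9542 to 10676 genes against 10221: 9542 to 9752 when 1 library was left out, 10497 with DESeq2, 9805 with the 6 libraries alone, 10259 with library totals, 10311 with upper quartiles and 10676 without a filter. Genes called both ways had the same direction in each. Of 191 named genes, 178 kept their side of the threshold and direction, 12 lost a call at least once, 1 gained one and none reversed. Of 936 list counts, 894 stayed within 1.5 times. Same-numbered day 4 and naive libraries did not deviate together (correlations -0.088 to 0.001, against -0.067 to 0.088 for different numbers), so the numbers were not taken as pairs; with a replicate block 10054 genes were called. For day 14 versus day 4, leaving out 1 library gave 1283 to 1772 calls against 1984, 750 to 967 higher against 1178 and 533 to 805 lower against 806. The lowest were without day 14 replicate 2 (1283, 750 and 533), and without day 4 replicates 1 and 2 784 and 783 were higher. The cause was not tested. Genes with few naive counts, such as Ccl3, Ccl4 and Lag3, have fold changes limited by depth.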
